A study of Mus musculus with 6 samples.

Results

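The genes described here are 36 genes of sphingolipid and ceramide metabolism, measured in HL-1 cells, an established mouse line of cardiomyocytes that came from an atrial tumour. They were chosen by name: each was represented by the probe set annotated to its symbol that had the highest mean log2 signal over all arrays. Of the 36 genes, 33 had a probe set with a single gene symbol and 27 of these passed a filter on dim signals, out of 18193 genes represented and 11332 tested on the arrays. The probe sets annotated to Ormdl2, Ormdl3 and Cers1 each carry the symbol of a second gene as well, so no value is given for these 3. Confluent cultures were kept for 8 hours at 1% oxygen (hypoxia, 3 arrays) or at 21% oxygen (normoxia, 3 arrays). All samples came from the same line, with no genetic change or other agent named in the labels. The comparison asks how the cells' transcripts respond to low oxygen. Whether the 3 samples of a condition were separate cultures is not stated, and the p-values therefore reflect no more than the spread among these arrays, part or all of which may be technical.

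Sphingolipids are built on a long-chain base that serine palmitoyltransferase makes from serine and palmitoyl-CoA. Ceramide, the central intermediate, is reached by de novo synthesis in the endoplasmic reticulum, by breakdown of sphingomyelin or glycosphingolipids, or by re-acylation of sphingosine in the salvage pathway. The last de novo step, the desaturation of dihydroceramide, uses molecular oxygen. In the heart, ceramide is known as a lipid that accumulates with fat overload and ischaemia, and sphingosine 1-phosphate as a signalling lipid that acts on cell surface receptors.

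Signals are MAS5 intensities on a linear scale, which compare the same probe set between arrays and not different probe sets with each other. The median signal of an array lay between 15 and 19, and the filter kept probe sets with a geometric mean signal above 14.1. All 7 atrial markers examined passed this filter, with summed signals of 25073 to 27377 in hypoxia and 26065 to 28226 in normoxia. Smooth muscle markers passed for 3 of 4 genes, with sums of 12106 to 15066 and 11312 to 13212. Fibroblast, endothelial and macrophage markers passed for 3 of 6, 2 of 5 and 3 of 5 genes, and their sums reached at most 231 in any array. Of the marker genes tested, 0 passed the limma test. Of 10 known hypoxia-responsive genes examined as a check of the labels, 10 had a higher mean log2 signal in hypoxia. The limma test called 7 of them higher and 0 lower, among them Slc2a1, the glucose transporter GLUT1, by 4.22-fold (adjusted p = 0.00038). Vegfa (2.34-fold, adjusted p = 0.092), Hmox1 (2.21-fold, adjusted p = 0.109) and Car9 (1.57-fold, adjusted p = 0.678) did not pass.

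No gene of sphingolipid metabolism passed the test of hypoxia against normoxia, and the genes' changes were spread around 0 like those of all genes on the arrays. Of the 27 tested, 0 were higher and 0 lower at an adjusted p under 0.05 (limma, Benjamini-Hochberg over 22518 probe sets). Over all genes tested, 0.662% were called higher and 0.0882% lower, so a count of 0 among 27 genes is near the background. In whole cultures, fewer expressing cells and less RNA per cell cannot be told apart. The median log2 fold change, hypoxia over normoxia, was -0.04 over the sphingolipid genes and -0.04 over all genes tested. On the deposited scale 11 of the 27 lay above 0 and 16 below, against 44.4% above 0 over all genes. After centring each array on its median, which moved the median of all probe sets by 0.11, 19 of the 27 lay above 0. The median log2 fold change was then 0.067 over the sphingolipid genes and 0.070 over all probe sets tested, so the count moved with the whole array. The share of all genes above 0 after centring was not counted. The median size of the change, without its sign, was 0.22 log2 in the sphingolipid genes and 0.20 in all genes. Changes past 1 log2 were seen in 0 of the 27, against 2.65% of all genes.

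**Figure D1:**
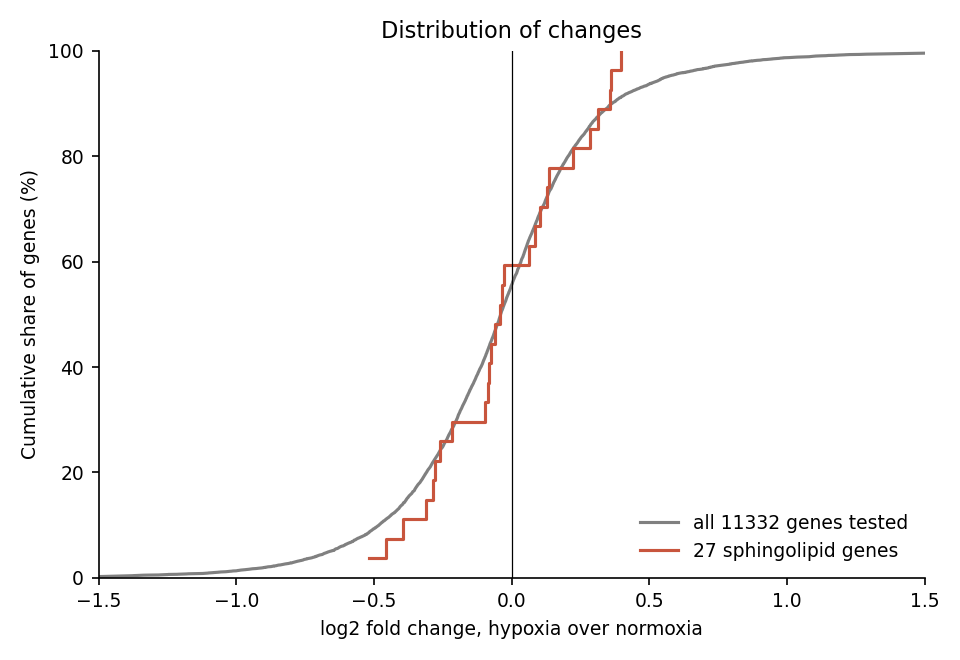
Cumulative share of genes (vertical axis, %) by log2 fold change of hypoxia over normoxia (horizontal axis) for all 11332 genes tested (grey) and the 27 sphingolipid genes (red); the axis is limited to 1.5 log2 on each side. The red steps follow the grey curve, with medians of -0.04 in both, and stop at -0.52 and 0.40.

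The precision of the arrays sets what these counts can show. The standard error (SE) of the log2 fold change had a median of 0.18 over the 27 genes and 0.20 over all genes tested. A gene with that median SE of 0.18 would have needed a log2 fold change of 1.00 to pass, and the size needed ran from 0.64 at the smallest to 2.28 at the largest SE of the 27. The 95% interval of the log2 fold change lay between -1 and 1 for 24 of the 27 genes. This holds for their representative probe sets only, and intervals of the other tested probe sets are not given here. Gla, Galc and Cers4 each had another tested probe set with a change past 1 log2 in size. Other probe sets of Asah2 at -0.75 (SE 0.36) and of Ugcg at 0.58 (SE 0.22) had larger SEs than the representatives. Over all genes tested, the interval lay between -1 and 1 for 74.2%. The 3 sphingolipid genes with a wider reach were Cers4, Sphk2 and Smpd3, with geometric mean signals of 27.1, 54.3 and 19.7 against the filter level of 14.1. The interval left out 0 for 2 genes, Ugcg and Asah2. An unadjusted limma p under 0.05 was reached by the same number, 1 higher and 1 lower, where 6.13% and 6.30% of all genes reached it.

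**Figure D2:**
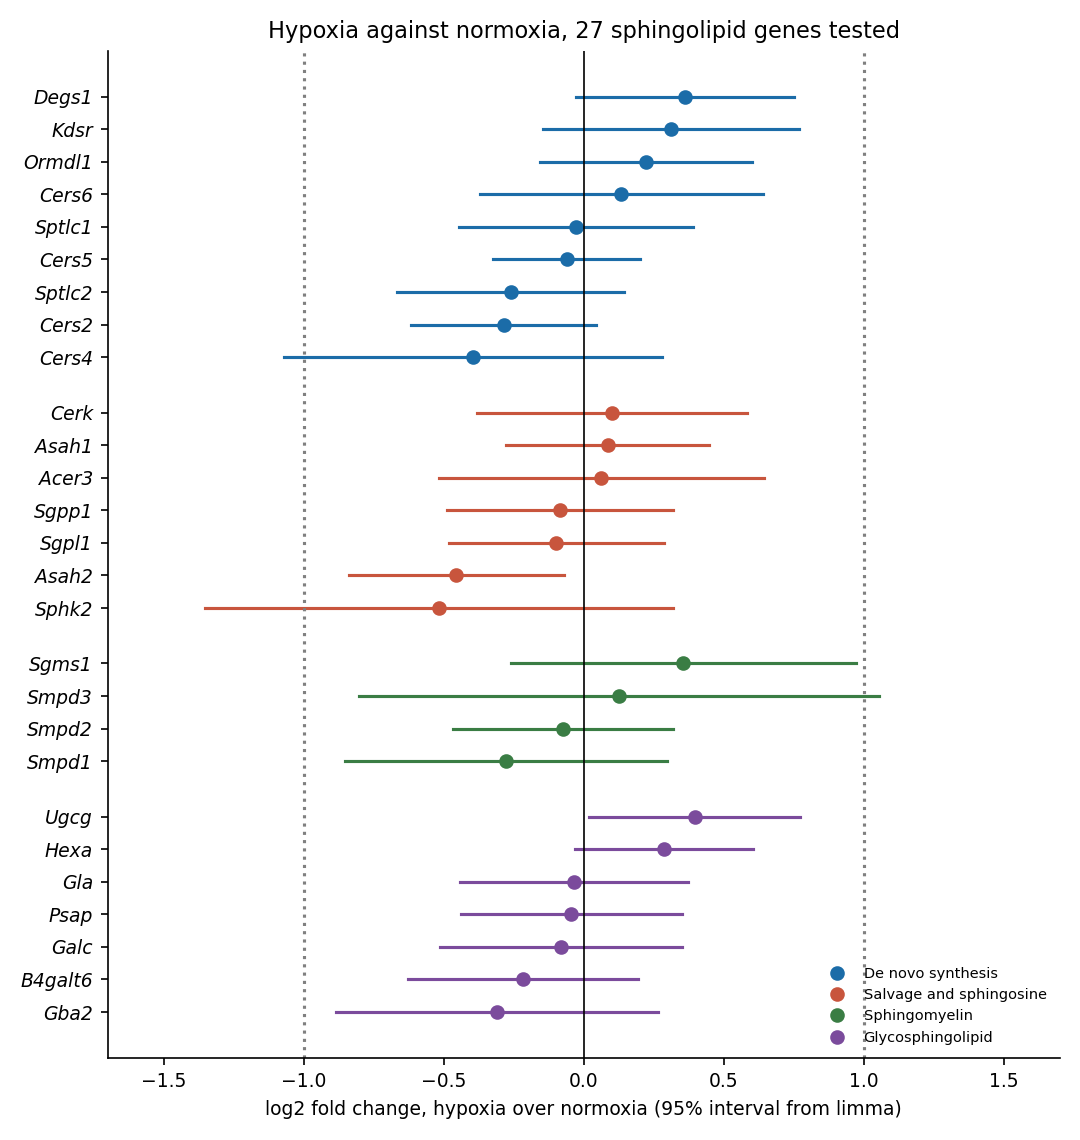
Log2 fold change of hypoxia over normoxia (horizontal axis, points) with its 95% interval from limma (lines) for the 27 sphingolipid genes tested, coloured by step group; dotted lines mark -1 and 1. Only the intervals of Cers4, Sphk2 and Smpd3 cross a dotted line, and only those of Ugcg and Asah2 miss 0.

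In 3 of the 27 genes the arrays of hypoxia and normoxia did not overlap, Ugcg and Hexa with hypoxia higher and Asah2 with hypoxia lower. Over all genes tested, the groups did not overlap with hypoxia higher in 8.16% and with hypoxia lower in 9.91%, so 2 and 1 of 27 lie near or under the background; in either direction it was 18.1%. The 250 bases before the start of these 3 genes, from RefSeq (GRCm38.p6), are printed to show where they hold the core of the hypoxia response element, the DNA motif bound by hypoxia-inducible factors. Capitals mark ACGTG or GCGTG read on either strand, so that CACGC is GCGTG on the opposite strand.
Ugcg, chr4:59189300-59189549, plus strand: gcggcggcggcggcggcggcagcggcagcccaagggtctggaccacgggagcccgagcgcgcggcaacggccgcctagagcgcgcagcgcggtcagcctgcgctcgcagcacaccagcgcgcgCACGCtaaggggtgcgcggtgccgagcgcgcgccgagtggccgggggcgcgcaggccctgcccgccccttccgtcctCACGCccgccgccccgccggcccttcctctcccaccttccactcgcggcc
Hexa, chr9:59539290-59539539, plus strand: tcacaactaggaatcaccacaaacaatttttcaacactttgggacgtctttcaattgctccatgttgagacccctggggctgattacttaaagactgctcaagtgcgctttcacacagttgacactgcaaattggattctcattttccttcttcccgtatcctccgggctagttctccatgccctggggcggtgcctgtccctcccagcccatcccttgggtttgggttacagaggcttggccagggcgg
Asah2, chr19:32103141-32103390, minus strand: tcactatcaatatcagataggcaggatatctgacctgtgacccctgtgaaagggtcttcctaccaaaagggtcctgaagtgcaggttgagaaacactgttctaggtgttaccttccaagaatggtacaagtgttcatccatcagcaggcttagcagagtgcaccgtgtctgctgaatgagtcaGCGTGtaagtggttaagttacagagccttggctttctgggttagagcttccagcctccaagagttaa
The Ugcg window held 2 matches to GCGTG and the Asah2 window 1, while the Hexa window held none of either motif. A match is only a run of letters, and short motifs are frequent in windows rich in G and C. A window was available for 33 sphingolipid genes, including some that were not tested on the arrays. Of these 33, 26 (78.8%) held ACGTG or GCGTG in at least 1 window. The share was 61.9% of 9218 genes tested on the arrays and 41.5% of all 27025 genes. Genes with several start sites have several windows; per window the shares were 65.3%, 55.7% and 38.6%. The median content of G and C per window was 60.8% in the sphingolipid genes, 60.0% in the genes tested on the arrays and 52.4% in all genes. The CLEAR element of lysosomal genes and a sterol response element were found in 0 of the 33 genes, against 0.608% and 1.26% of the genes tested.

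De novo synthesis was measured by 9 tested genes, of which 0 passed, 4 lay above 0 and 5 below. Their median log2 fold change was -0.03 (replicate SD 0.05). For the replicate SD, here and below, the median over the genes of log2 signal relative to the normoxia mean was taken on each array. The SD of these array medians within a condition was pooled over both conditions. It is not the SE of the median log2 fold change. Degs1, the dihydroceramide desaturase that uses oxygen, had signals of 972, 836 and 1091 in hypoxia replicates 1 to 3 and 960, 631 and 691 in normoxia. The normoxia array of replicate 1 lay among the hypoxia arrays, and the other two lay below all of them. Its log2 fold change was 0.36 (SE 0.17, 95% interval -0.03 to 0.75, adjusted p = 0.498). No other gene of de novo synthesis had a smaller p. Without normoxia replicate 1 the change was 0.54 and still did not pass (adjusted p = 0.147). A second Degs1 probe set had signals of 784 ± 98.4 in hypoxia and 670 ± 71.6 in normoxia (means ± SD of 3 arrays per group here and below), and lay at 0.22 log2 (adjusted p = 0.604).

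The ceramide synthases join a fatty acyl-CoA to the long-chain base. They differ in the chain lengths they prefer, with overlap between some of them. Cers2, which makes very-long-chain ceramides, had signals of 303, 393 and 319 in hypoxia and 384, 434 and 413 in normoxia. Hypoxia replicate 2 alone reached into the normoxia range. Its log2 fold change was -0.29 (SE 0.15, interval -0.62 to 0.05, adjusted p = 0.531). Cers5, which makes palmitoyl ceramide, had signals of 799, 857 and 841 in hypoxia and 812, 846 and 951 in normoxia, with overlapping ranges. Its log2 fold change of -0.06 had the narrowest interval of the 27 genes, -0.32 to 0.20 (adjusted p = 0.884). Cers6, which also makes palmitoyl ceramide, had 119 ± 29.0 in hypoxia and 106 ± 15.3 in normoxia, a log2 fold change of 0.13 with an interval of -0.37 to 0.64. Cers4 was dim, at 24.0 ± 4.88 and 31.3 ± 4.62, with a log2 fold change of -0.39 (interval -1.07 to 0.28). Another Cers4 probe set, also dim at 15.2 ± 3.88 and 30.8 ± 8.52, had non-overlapping groups and lay at -1.02 log2 (adjusted p = 0.375).

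The genes of the first steps had overlapping groups. Kdsr, which reduces the product of serine palmitoyltransferase, had signals of 117, 141 and 179 in hypoxia and 105, 109 and 137 in normoxia. The ranges overlapped, and the log2 fold change was 0.31 (SE 0.20, interval -0.14 to 0.77, adjusted p = 0.620). Its other 2 probe sets had changes of 0.24 and 0.04. Sptlc1 and Sptlc2 encode the catalytic core of serine palmitoyltransferase. Sptlc1 had 120 ± 22.3 in hypoxia and 121 ± 5.18 in normoxia, a log2 fold change of -0.03 (interval -0.45 to 0.39). Other tested probe sets of Sptlc1, which were dimmer, lay at -0.52 (limma adjusted p = 0.531) and 0.36 (limma adjusted p = 0.663). Sptlc2 had 383 ± 56.7 and 462 ± 93.6, a log2 fold change of -0.26 (interval -0.67 to 0.14, adjusted p = 0.639). Ormdl1, an inhibitor of serine palmitoyltransferase, had 411 ± 67.0 and 351 ± 52.9, a log2 fold change of 0.22 (interval -0.16 to 0.60).

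**Figure D3:**
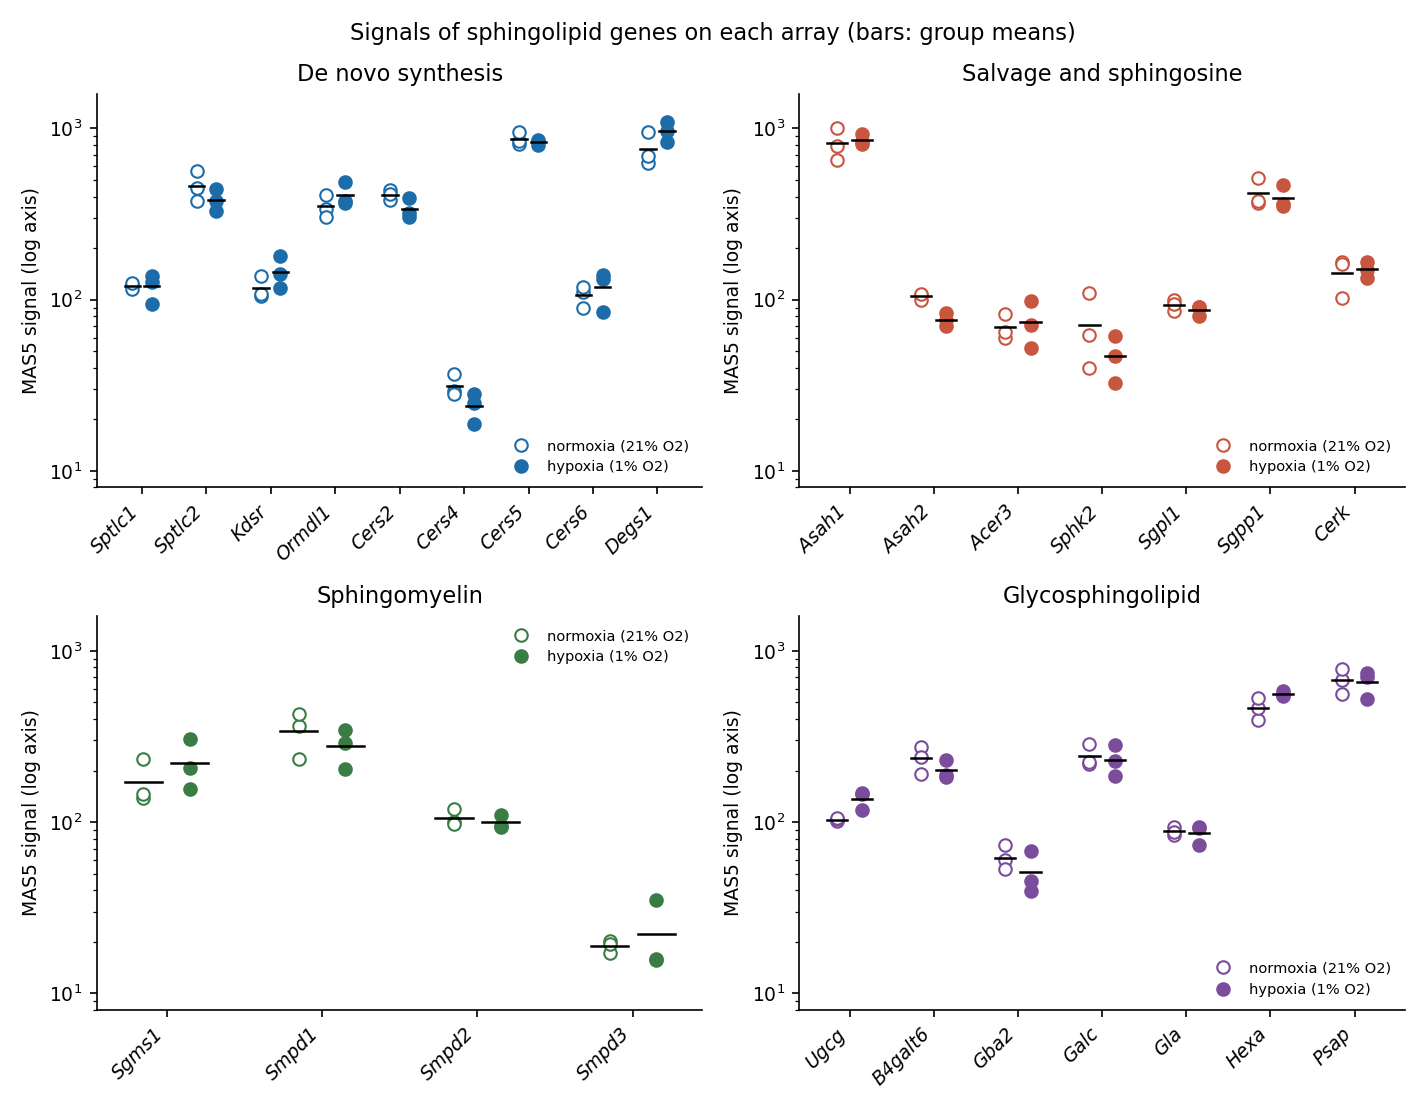
MAS5 signal on each array (vertical axis, logarithmic) for the 27 sphingolipid genes tested, in a panel per step group; open circles are the 3 normoxia arrays, filled circles the 3 hypoxia arrays and short bars the group means. The circles of the groups overlap for every gene except Asah2, Ugcg and Hexa.

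The salvage group covers ceramidases, which free sphingosine from ceramide, and the enzymes that phosphorylate or cleave sphingoid bases. Of 7 tested genes 0 passed, 3 lay above 0 and 4 below, with a median log2 fold change of -0.09 (replicate SD 0.17). Asah2, the neutral ceramidase, had signals of 83.3, 76.4 and 70.1 in hypoxia and 107, 99.7 and 108 in normoxia. Every hypoxia array lay below every normoxia array. The signal was 1.37-fold lower in hypoxia (log2 fold change -0.46, SE 0.17, interval -0.84 to -0.07), with the smallest p of the 27 genes, but it did not pass (adjusted p = 0.375). Both other Asah2 probe sets, which were dimmer, had the same sign, at -0.75 (13.3 ± 0.907 against 22.5 ± 2.40, adjusted p = 0.496, groups apart) and -0.30 (26.9 ± 10.3 against 31.3 ± 3.47, adjusted p = 0.794). Asah1, the acid ceramidase of lysosomes, had signals of 808, 838 and 924 in hypoxia and 1012, 657 and 788 in normoxia. The hypoxia arrays lay within the normoxia range, and the log2 fold change was 0.09 (interval -0.28 to 0.45). Acer3, an alkaline ceramidase, had 73.9 ± 23.2 and 69.1 ± 12.2, a log2 fold change of 0.06 (interval -0.52 to 0.64).

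Sphk2, the sphingosine kinase with a tested probe set, had signals of 47.1, 61.4 and 32.4 in hypoxia and 39.9, 110 and 62.6 in normoxia. Normoxia replicate 2 stood above all other arrays. The log2 fold change was -0.52 with an SE of 0.37, and its interval of -1.35 to 0.32 was among the widest (adjusted p = 0.652). A dimmer second probe set had -0.74 (adjusted p = 0.631). Sgpl1, the lyase that irreversibly degrades sphingosine 1-phosphate, had signals of 90.3, 80.4 and 90.3 in hypoxia and 85.8, 99.1 and 94.4 in normoxia. The groups overlapped, with a log2 fold change of -0.10 (interval -0.48 to 0.29, adjusted p = 0.870). Sgpp1, which dephosphorylates sphingosine 1-phosphate, had 393 ± 63.7 and 419 ± 84.7 (log2 fold change -0.09). Cerk, the ceramide kinase, had 150 ± 15.9 and 143 ± 35.5 (log2 fold change 0.10). All 3 tested Sgpp1 probe sets lay between -0.09 and -0.03.

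In the sphingomyelin group 4 genes were tested, 0 passed, and the median log2 fold change was 0.03 (replicate SD 0.09), with 2 genes on each side of 0. Sgms1, the sphingomyelin synthase of the Golgi, had signals of 208, 155 and 304 in hypoxia and 232, 137 and 146 in normoxia. Hypoxia replicate 3 was the highest array and normoxia replicate 1 the next. The log2 fold change was 0.36 (SE 0.28, interval -0.26 to 0.97, adjusted p = 0.671), but the other 2 tested probe sets of the gene lay at -0.13 and -0.25. Smpd1, the acid sphingomyelinase of lysosomes, had signals of 291, 346 and 203 in hypoxia and 233, 364 and 429 in normoxia, which overlap. Its log2 fold change was -0.28 (SE 0.26, interval -0.85 to 0.30, adjusted p = 0.732). A dimmer Smpd1 probe set had 32.7 ± 0.656 in hypoxia and 45.5 ± 6.16 in normoxia, with the groups apart at -0.47 log2 (adjusted p = 0.517). Smpd2 and Smpd3 are neutral sphingomyelinases. Smpd2 had signals of 95.2, 94 and 110 in hypoxia and 99.7, 119 and 97.1 in normoxia. Its log2 fold change was -0.07 (interval -0.47 to 0.32). Smpd3 was close to the filter, at 22.2 ± 11.3 and 18.9 ± 1.57, and its log2 fold change of 0.13 had an interval of -0.80 to 1.05.

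The glycosphingolipid group had 7 tested genes, of which 0 passed, 2 lay above 0 and 5 below (median -0.04, replicate SD 0.21). Ugcg, the glucosylceramide synthase that commits ceramide to most glycosphingolipids, had signals of 118, 146 and 148 in hypoxia and 101, 105 and 105 in normoxia. All hypoxia arrays lay above all normoxia arrays. The signal was 1.32-fold higher in hypoxia (log2 fold change 0.40, SE 0.17, interval 0.02 to 0.77), and it did not pass (adjusted p = 0.431). Its 2 further tested probe sets had the same sign, at 0.26 (91.4 ± 6.42 against 76.1 ± 4.63, groups apart, adjusted p = 0.624) and 0.58 (114 ± 23.7 against 76.5 ± 16.3, adjusted p = 0.390). The mean of the 3 probe sets did not pass either (adjusted p = 0.304), and the remaining Ugcg probe set lay under the filter. Hexa, the alpha subunit of beta-hexosaminidase, which trims gangliosides in lysosomes, had signals of 547, 581 and 553 in hypoxia and 396, 463 and 529 in normoxia. The groups did not overlap, but the gap between the highest normoxia and the lowest hypoxia array was narrow beside the spread of normoxia. The log2 fold change was 0.29 (SE 0.14, interval -0.03 to 0.60, adjusted p = 0.514).

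The other glycosphingolipid genes showed overlapping groups on their representative probe sets. Gba2, the glucosylceramidase outside lysosomes, had signals of 45.4, 68.1 and 39.6 in hypoxia and 60.2, 53.0 and 73.2 in normoxia. Its log2 fold change was -0.31 (SE 0.26, interval -0.89 to 0.26, limma adjusted p = 0.698). Psap, the precursor of the saposins that help lysosomal hydrolases reach their lipids, had signals of 700, 746 and 521 in hypoxia and 559, 679 and 785 in normoxia. The groups overlapped, with a log2 fold change of -0.04 (interval -0.44 to 0.35), and its second probe set lay at -0.07. B4galt6, a lactosylceramide synthase, had 202 ± 26.3 and 236 ± 43.0, a log2 fold change of -0.22 (interval -0.63 to 0.19), and all 4 of its probe sets lay below 0, from -0.38 to -0.03. Galc, the lysosomal galactosylceramidase, had 231 ± 47.7 and 243 ± 38.8 (log2 fold change -0.08), with a dimmer probe set at -1.03 (adjusted p = 0.460).

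Gla, the lysosomal alpha-galactosidase A, gave the largest disagreement between probe sets of a gene. Its representative had 86.6 ± 11.1 in hypoxia and 88.3 ± 4.97 in normoxia, a log2 fold change of -0.04 (interval -0.44 to 0.37). Another probe set had signals of 27.9, 27.8 and 34.6 in hypoxia and 3.40, 6.90 and 13.2 in normoxia. There the groups were apart, with all normoxia arrays under the level of the filter and a log2 fold change of 2.15 (SE 0.55), which did not pass (adjusted p = 0.164). Which of the 2 follows the transcript was not tested.

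Over the whole set, 17 of the 27 genes had more than 1 tested probe set, which added 25 to the representatives. Of these 25, 0 passed, and their log2 fold changes ran from -1.03 to 2.15. In 13 of the 17 genes all tested probe sets had the same sign, among them Ugcg, Asah2, Degs1, Kdsr, Sphk2 and B4galt6. In Sptlc1, Sgpl1, Sgms1 and Gla they had both signs.

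**Figure D4:**
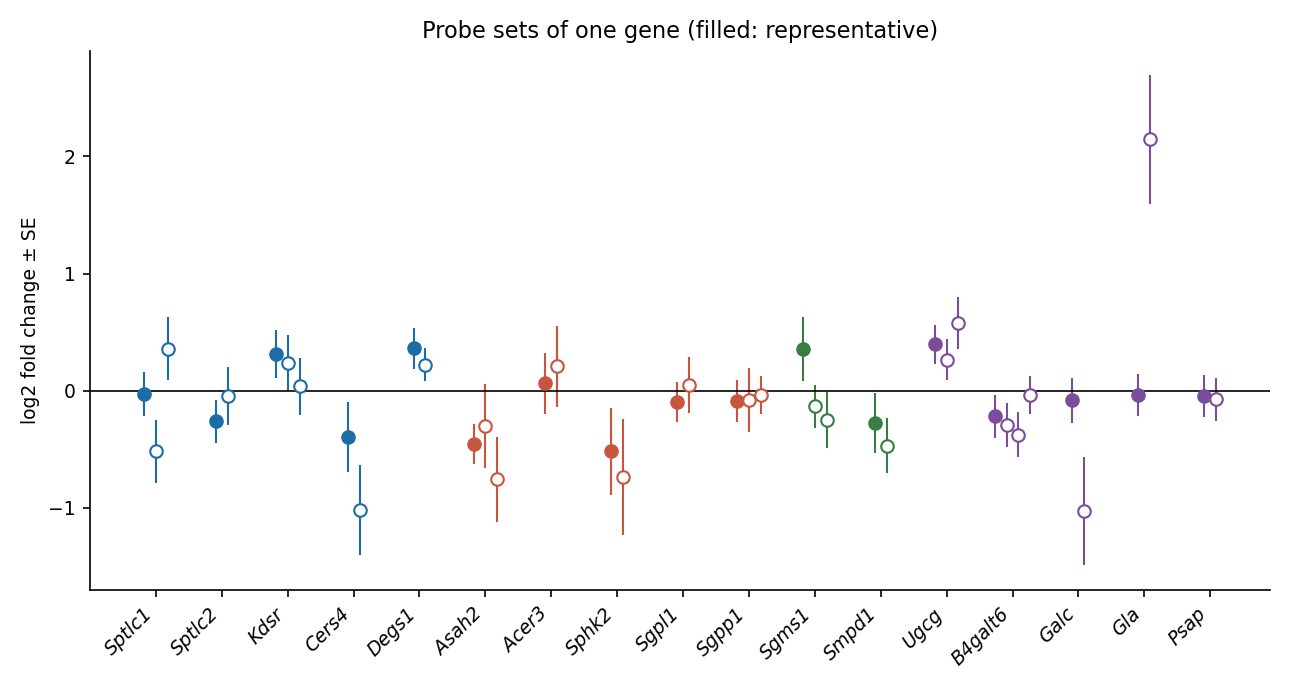
Log2 fold change of hypoxia over normoxia (vertical axis, with limma's SE as bars) for each tested probe set of the 17 sphingolipid genes that had more than 1; filled circles are the representatives, open circles the other probe sets, and colours the step groups as in the interval plot. The Gla probe set at 2.15 stands apart from its representative at -0.04, while the 3 of Ugcg and the 3 of Asah2 lie on the same side of 0.

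Opposing steps and isozymes were also compared within each array, as the log2 ratio of a pair of genes, for the 4 of 8 chosen pairs in which both genes were tested. An exact two-sided permutation test of 3 against 3 arrays cannot give a p below 0.1. The ratio of Ugcg, which makes glucosylceramide, to Gba2, which breaks it down, was higher by 0.71 log2 in hypoxia (1.46 ± 0.41 against 0.75 ± 0.23, exact permutation p = 0.1, the smallest possible, and 0.4 after Benjamini-Hochberg adjustment over the 4 pairs). The ratio of Cers2 to Asah1 differed by -0.37 (exact permutation p = 0.2, adjusted 0.4). The ratios of Sgms1 to Smpd1 and of Cers5 to Cers6 differed by 0.63 and -0.20 (exact permutation p = 0.5 for each). None of the 4 differences passed, and a test of this size could not have passed at 0.05.

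The 6 genes whose representative lay under the filter were not tested: Sptlc3, Degs2, Acer2, Sphk1, Sgms2 and Ugt8a. Their signals reached at most 27.3 on any array, a range in which MAS5 values vary widely. Acer2, an alkaline ceramidase of the Golgi, had signals of 11.7, 21.3 and 15.6 in hypoxia, a mean of 16.2 ± 4.83, against 7.10 ± 4.03 in normoxia. Ugt8a, which makes galactosylceramide in myelinating cells, had 1.9, 2.2 and 1.6 in hypoxia and 18.5, 2.4 and 11 in normoxia. The groups were apart for both, upward for Acer2 and downward for Ugt8a, but these levels are given as values only. For Ugt8a the gap was only that between 2.2 and 2.4, and on the second probe set of either gene the groups overlapped. Over all genes tested the groups were apart in 18.1%, and the share among genes under the filter was not counted. Sphk1, the other sphingosine kinase, had 4.10, 16.1 and 12.2 in hypoxia and 13.8, 27.3 and 18.8 in normoxia, with overlap. Sptlc3, an alternative subunit of serine palmitoyltransferase, Degs2, a second desaturase, and Sgms2, a second sphingomyelin synthase, had group means between 2.47 and 10.6, and their groups overlapped.

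Of 40 further genes of sphingolipid metabolism, transport and signalling, 38 were analysed here and 26 were tested. By limma 0 passed in either direction. At an unadjusted limma p under 0.05, 0 were higher and 3 lower, where 6.13% and 6.30% of all genes tested reached it. The groups did not overlap in 2 genes with hypoxia higher (Rtn4 and Neu3) and in 2 with hypoxia lower. That is 7.69% in each direction, against 8.16% and 9.91% of all genes tested. Neu3 had 19.9 ± 6.74 in hypoxia and 11.0 ± 0.586 in normoxia. All its normoxia arrays lay under the level of the filter, so it was tested only through its hypoxia signals. The median log2 fold change of the 26 further genes was -0.05, with 12 above 0 and 14 below. The smallest unadjusted p belonged to S1pr4, a receptor of sphingosine 1-phosphate known from blood cells, at 12.4 ± 7.15 in hypoxia and 37.1 ± 6.0 in normoxia (log2 fold change -1.80, SE 0.54, adjusted p = 0.237). Its groups did not overlap, and the hypoxia mean lay under the level of the filter. Plpp3, a lipid phosphatase that acts on sphingosine 1-phosphate among other lipids, had 518 ± 74.5 and 740 ± 187 (log2 fold change -0.49, adjusted p = 0.412). Smpdl3b, a membrane protein related to acid sphingomyelinase, had 351 ± 42.5 and 468 ± 76.4, with the groups apart (log2 fold change -0.41, adjusted p = 0.413). For the small subunit Sptssa of serine palmitoyltransferase and the ceramide transfer protein Cert1, the log2 fold changes were -0.07 and -0.23, with adjusted p = 0.909 and 0.711; these genes were picked for their roles after their values were seen.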

How the data were processed

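Total RNA of 6 HL-1 samples was measured on one-colour arrays. The authors deposited a linear signal intensity for each of 45037 probe sets and 6 arrays; MAS5 is the only software in the submitters' processing notes, and which version and settings were run is not given in the sources used here. On every array the mean signal, trimmed by 2% at either end, was 99.5, and the values were not rescaled. No pair among the 15 pairs of arrays was identical. Values of 0, of which there were 10, were replaced by 0.1, the lowest positive signal, before taking log2. Probe sets whose mean log2 signal exceeded the median of all (geometric mean 14.1) entered the test, 22518 in total. Hypoxia and normoxia were compared with limma 3.58.1 in R 4.3.3 (lmFit, eBayes with trend, two-sided, no covariates) and called at a Benjamini-Hochberg adjusted p under 0.05. The number of arrays limits the precision. Gene names came from the platform annotation of 2016, with 1 symbol for 34945 probe sets, several for 932 and none for 9160; probe sets with several named no gene. The procedure was tested on simulated data with planted changes larger than that of any sphingolipid gene tested, on its representative probe set. The simulation therefore does not show how often changes of that smaller size would be found.

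The genes, step groups and lists were chosen with earlier results of these data known. Full values were given for every gene that passed and, in each step group, for the 3 genes with the smallest unadjusted p and the one with the highest mean signal; of the further sphingolipid genes, the 3 with the smallest unadjusted p were named. Alternatives concerned the scaling (quantile, median centring, cyclic loess), an added offset of 2.9, which is the 20th percentile of the signals, the filter (none, or the 25th or 75th percentile), the variance model (no trend, robust, array weights), a block for the replicate number, the choice of probe set (their mean, or none ending in x_at or s_at), an unadjusted p, and the omission of each array.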

Additional observations from a re-analysis of the deposited data

How the results depend on the processing

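In every alternative fit 0 of the sphingolipid genes tested were called in either direction; calling at an unadjusted p under 0.05 gave 1 higher and 1 lower. The lowest adjusted p of any of them was 0.138 (Gla, mean of its probe sets, log2 fold change 1.05), then 0.147 (Degs1, without normoxia replicate 1) and 0.190 (Degs1, array weights). The fits differ in power: over all probe sets 120 were called higher and 17 lower, against 16 and 2 with eBayes without trend, 312 and 125 with array weights, and 37 and 2 without hypoxia replicate 1. The replicate numbers did not mark shared deviations (correlations of same-numbered arrays -0.08, 0.21 and -0.14). Only the arrays of replicate 2 correlated best with their own number. The highest correlation, 0.32, was between hypoxia replicate 3 and normoxia replicate 1. The replicate block gave 100 higher and 5 lower over all probe sets and 0 and 0 among the sphingolipid genes. The planned ratios with Sphk1, Ormdl3 or Degs2 were not computed, since these genes had no tested probe set.

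Over all step groups and fits, the median log2 fold changes ran from -0.167 (salvage, without hypoxia replicate 1) to 0.137. Median centring gave 0.067 over all sphingolipid genes, 0.084 for de novo synthesis and 0.137 for sphingomyelin; the filter at the 75th percentile gave 0.054 and -0.075 for the latter groups, and leaving out 1 array gave -0.068 to 0.044 and -0.148 to 0.136. Genes close to 0 changed sign. Under median centring Sptlc1 was at 0.084, Cers5 0.051, Sgpl1 0.013, Sgpp1 0.025, Smpd2 0.036, Galc 0.028, Gla 0.075 and Psap 0.067. Under quantile normalization and cyclic loess Sptlc1 was at 0.020 and 0.018 and Gla at 0.022 and 0.022, under array weights Sgpp1 at 0.018 and Gla at 0.029, and with the mean of all probe sets Sgms1 at -0.0087. Leaving out 1 array gave -0.138 to 0.132 for Sptlc1, -0.108 to 0.0058 for Cers5, -0.062 to 0.250 for Asah1, -0.167 to 0.289 for Acer3, -0.215 to 0.075 for Sgpp1, -0.126 to 0.222 for Cerk, -0.147 to 0.015 for Smpd2, -0.262 to 0.325 for Smpd3, -0.233 to 0.065 for Galc, -0.095 to 0.075 for Gla and -0.172 to 0.113 for Psap. The causes were not tested. Ugcg, Hexa, Degs1, Asah2, Cers2 and 9 further genes kept their sign in each fit that tested them.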
